A study of Mus musculus with 2 samples.

Results

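The genes that pass or block a cell at the G1 checkpoint were followed in LSK cells, the lineage-negative, Sca-1 and c-Kit positive fraction of bone marrow that holds stem cells and early progenitors. The set was given as a list: the D cyclins Ccnd1, Ccnd2 and Ccnd3, their kinases Cdk4 and Cdk6, the Cip/Kip inhibitors Cdkn1a, Cdkn1b and Cdkn1c, and the INK4 inhibitors Cdkn2c and Cdkn2d. All 10 members were found among the 32285 genes counted. Cells were barcodes with at least 8000 unique molecular identifiers (UMIs, each standing for 1 captured RNA molecule) and under 10% mitochondrial UMIs, which gave 5363 cells of the miR-142 WT CML library and 5458 of the miR-142 KO CML library.

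The study asked what a lack of the microRNA miR-142 does to leukemic stem cells in a mouse model of chronic myeloid leukemia (CML). Both libraries were made with a 10x Genomics 3′ kit from mice 8 to 10 weeks old carrying the BCR-ABL transgene (strain BCR-ABL+), and the KO mice also lacked Mir142 (strain Mir142 KO BCR-ABL+). In this tet-off model on the B6 background, withdrawal of tetracycline turns on BCR-ABL from the SCL promoter, which is active in stem and progenitor cells, and LSK cells were taken 2 weeks later. No group without BCR-ABL was analysed here, so every value compares leukemic cells with leukemic cells. There was 1 library per group and the number of mice in each was not stated. No test was therefore run. Every interval of a level or ratio below is a 95% interval that covers the error of counting UMIs. It says nothing of how mice, or the cells of a library, vary.

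D cyclins bind Cdk4 or Cdk6, and the active pair phosphorylates the retinoblastoma proteins, which frees E2F factors to switch on the genes of DNA synthesis. INK4 proteins bind Cdk4 and Cdk6 and keep them from D cyclins, while Cip/Kip proteins bind cyclin-CDK complexes and above all block Cdk2. In blood stem cells, high p57 and p27, the products of Cdkn1c and Cdkn1b, are known as features of quiescence, and Cdk6 is known as a kinase that sets how fast such cells leave it. These roles act largely on protein and its phosphorylation, which RNA counts do not measure.

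The hairpin deleted in the KO mice gives a pair of mature miRNAs, shown here (RefSeq, GRCm38.p6, 5′ to 3′) because their seeds, bases 2 to 8 in capitals, set which 3′ UTRs they can pair with.
mmu-miR-142a-5p: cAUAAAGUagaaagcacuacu
mmu-miR-142a-3p: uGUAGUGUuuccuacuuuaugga
They lie on the plus strand of chromosome 11, chr11:87756867-87756887 for the 5p arm and chr11:87756903-87756925 for the 3p arm. A full match to the 5p seed reads ACTTTAT in a 3′ UTR and a match to the 3p seed reads ACACTAC. In the longest annotated 3′ UTR of each of the 10 members, from 373 bases in Cdkn2c to 10217 bases in Cdk6, neither heptamer was found on the transcript strand. Of 7334 genes with a mean of 10 CPM or more (CPM, UMIs of a gene per 1000000 UMIs of the cells summed) and an annotated 3′ UTR, 16.3% held ACTTTAT and 7.19% held ACACTAC. The search says only that these letters were not in these windows.

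Mir142hg, the counted host transcript of the hairpin, had 1260 UMIs in WT and 20 in KO, that is 9.12 and 0.126 CPM. The sort markers Kit, Ly6a (Sca-1) and Cd34 were present in both libraries, with WT levels of 86.4, 96.8 and 255 CPM and KO levels of 68.3, 153 and 199 CPM. The cells held a median of 19443 UMIs in WT and 24181 in KO, and 4 barcode sequences occurred in both. Each cell was thinned to 8000 UMIs and gated on marker genes. The stem cell gate (markers such as Procr and Mecom) took 1256 WT and 296 KO cells, the lymphoid-primed gate (Flt3, Dntt, Satb1) 992 and 590, the granule gate (Elane, Mpo, Prtn3, Ctsg) 916 and 2791, the megakaryocyte gate (Pf4, Gp1bb, Itga2b) 315 and 219, and the mast/basophil gate (Cpa3, Mcpt8, Cma1) 240 and 329, while 1550 and 980 cells passed no gate. These 6 groups were compared. Erythroid (48 and 30 cells), innate lymphoid (10 and 223) and antibody-secreting cells (36 and 0) fell under 50 cells in at least 1 library. The gates were not pure: the megakaryocyte group also had 6 of 10 stem cell markers at 2-fold or more over other cells. At that level the granule group had 3 of 6 neutrophil and 3 of 5 monocyte markers. The mast/basophil group had 3 of 9 megakaryocyte and 4 of 8 innate lymphoid markers.

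Over all cells, the intervals of 9 of the 10 members excluded 0, 7 of them lower and 2 higher in KO, and the differences were under 1.5-fold. None of the 9 members with a mean of 10 CPM or more was 1.5-fold higher or lower in KO, where 7.58% of all 7483 such genes were, and Cdkn1c was below that level. The median log2 ratio (KO over WT) of the 9 members was -0.31, beside -0.08 over all genes. Cdkn2c came nearest to 1.5-fold, with 18.0 CPM in WT and 12.2 in KO (log2 -0.57, interval -0.65 to -0.48). Without the mast/basophil cells, Ccnd2 passed 1.5-fold (-0.59 in place of -0.47). Cdkn1a was the member most above 0, with 27.9 and 34.2 CPM (0.29, 0.23 to 0.35).

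The sums over all cells mixed groups that the libraries held in unequal amounts. Granule cells carried 35.5% of the UMIs in WT and 69.4% in KO, while stem-gated cells carried 14.2% and 2.65%. Granule cells had the lowest CPM of the 6 groups for each of the 5 inhibitors in both libraries. With both libraries weighted to the pooled makeup of the 6 groups, the log2 ratio of Ccnd1 was 0.26 in place of -0.40, that of Cdkn1b 0.28 in place of -0.16, and that of Cdkn1c 0.68 in place of 0.01. Values inside the groups therefore follow gene by gene.

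**Figure D1:**
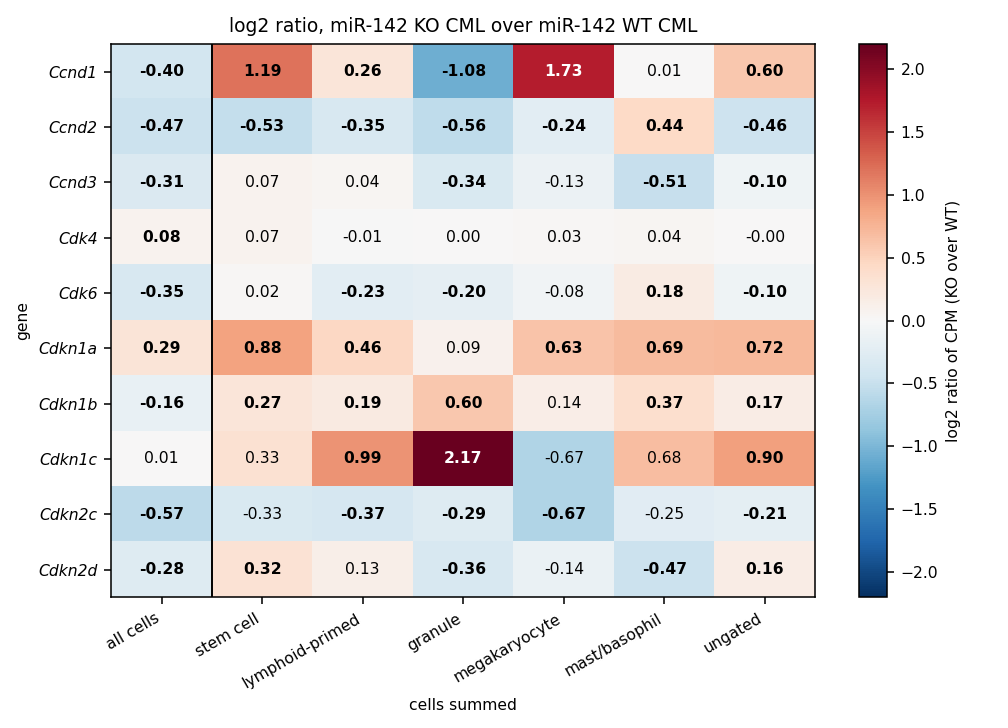
Log2 ratio of CPM, KO over WT, for the 10 members (rows) over all cells and in the 6 cell groups (columns), with red for higher and blue for lower in KO and bold type where the 95% counting interval excludes 0. Ccnd1 ran from -1.08 in granule cells to 1.73 in the megakaryocyte group, while Cdk4 stayed between -0.01 and 0.07 in the 6 groups.

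Ccnd1, encoding cyclin D1, lies on the minus strand of chromosome 7 (GRCm38, 144929931 to 144939925). It had 19.2 CPM in stem-gated WT cells and 43.6 CPM in stem-gated KO cells, a log2 ratio of 1.19 (0.92 to 1.45). In the megakaryocyte group it had 18.2 CPM in WT and 60.4 CPM in KO (1.73, 1.38 to 2.08). In granule cells the order was the opposite, with 28.5 CPM in WT and 13.5 CPM in KO (-1.08, -1.19 to -0.97). Lymphoid-primed cells had 40.1 and 47.9 CPM, ungated cells 31.7 and 47.9 CPM, and mast/basophil cells 8.97 and 9.01 CPM. KO was thus higher with an interval above 0 in 4 of 6 groups and lower in 1. Stem-gated cells were lower in Ccnd1 than the other cells of their library in WT (log2 -0.63, -0.79 to -0.48) and higher in KO (1.07, 0.84 to 1.28). Granule cells, at 13.5 CPM, held 69.4% of all KO UMIs. Against single groups, stem-gated KO cells stood below the lymphoid-primed, ungated and megakaryocyte groups and above the granule and mast/basophil groups. In cells with 16000 UMIs or more the megakaryocyte ratio was 1.22, and the ratio of ungated cells was 0.46, under 1.5-fold. With 1 marker more at every gate the ungated ratio was 0.26 and the granule ratio -1.34.

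Ccnd2 (cyclin D2; chromosome 6, 127125162 to 127152193, minus strand) was lower in KO in 5 of 6 groups. It had 127 CPM in stem-gated WT and 87.9 CPM in stem-gated KO cells (-0.53, -0.69 to -0.37), and 95.7 and 64.7 CPM in granule cells (-0.56, -0.62 to -0.51). Mast/basophil cells were the exception and the group with most Ccnd2 in both libraries, with 195 CPM in WT against 264 CPM in KO (0.44, 0.33 to 0.55). Ccnd3 (cyclin D3; chromosome 17, 47505051 to 47599691, plus strand) was highest in the megakaryocyte group, with 208 CPM in WT and 190 CPM in KO. It was lower in KO in granule cells (121 and 95.7 CPM, -0.34, -0.38 to -0.29), mast/basophil cells (192 and 134 CPM, -0.51, -0.64 to -0.38) and ungated cells (132 and 123 CPM, -0.10, -0.17 to -0.02), and the other 3 intervals included 0. The UMIs of the D cyclins summed to 295 CPM in stem-gated WT cells and 287 CPM in stem-gated KO cells (-0.04, -0.13 to 0.05), so Ccnd1 and Ccnd2 moved in opposite directions within a like total.

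**Figure D2:**
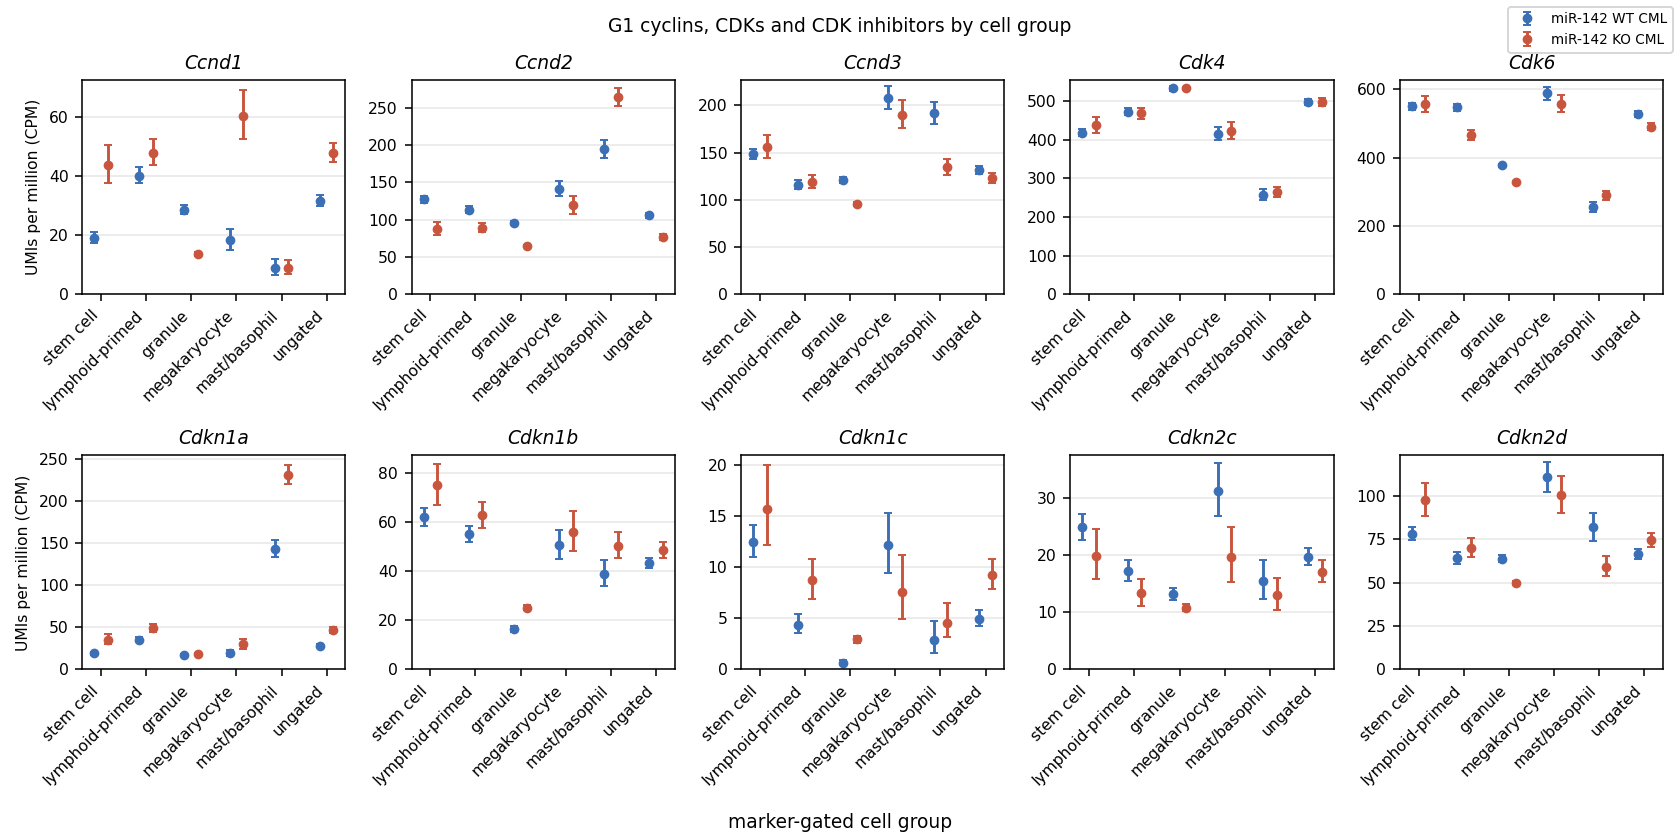
CPM of each member (y axis, from 0, a scale of its own in each panel) in the 6 cell groups (x axis) of the WT library (blue) and the KO library (red), 1 library each, with 95% Poisson intervals for counting error. Cdkn1a stood highest in mast/basophil cells, with 144 CPM in WT against 231 CPM in KO, and granule cells were lowest for Cdkn1b and Cdkn1c in both libraries.

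Cdk4 (chromosome 10, 127063534 to 127067920, plus strand) was the most even of the members between the libraries. Granule cells had 533 CPM in WT and 534 CPM in KO, stem-gated cells 418 and 438 CPM, and mast/basophil cells 257 and 265 CPM. No interval of the 6 groups excluded 0, and together they spanned -0.07 to 0.14. Across groups it was highest in granule and lowest in mast/basophil cells in both libraries. Cdk6 (chromosome 5, 3341485 to 3531008, plus strand) showed another order, with 551 and 557 CPM in stem-gated cells, 588 and 558 CPM in the megakaryocyte group, 377 and 329 CPM in granule cells and 255 and 290 CPM in mast/basophil cells. It was lower in KO in lymphoid-primed cells (547 and 465 CPM, -0.23, -0.28 to -0.18), granule cells (-0.20, -0.22 to -0.17) and ungated cells (-0.10, -0.14 to -0.07), and higher in mast/basophil cells (0.18, 0.08 to 0.28). In stem-gated cells its interval included 0 (-0.05 to 0.08). The difference over all cells, 470 CPM in WT and 367 CPM in KO, was larger than in any group.

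Cdkn1a (p21, an inhibitor that p53 is known to induce; chromosome 17, 29090976 to 29100727, plus strand) was higher in KO in 5 of 6 groups. Stem-gated cells had 19.1 CPM in WT and 35.3 CPM in KO (0.88, 0.60 to 1.16). Ungated cells had 28.3 and 46.5 CPM (0.72, 0.58 to 0.85), lymphoid-primed cells 35.3 and 48.7 CPM (0.46, 0.29 to 0.63), and the megakaryocyte group 19.1 and 29.6 CPM (0.63, 0.23 to 1.04). Granule cells had 17.3 and 18.3 CPM, with an interval that included 0 (-0.03 to 0.20). In mast/basophil cells Cdkn1a was far above the other groups, with 144 CPM in WT against 231 CPM in KO (0.69, 0.56 to 0.81), and this group of 240 and 329 cells held 19.5% of all Cdkn1a UMIs in WT and 29.8% in KO. A single WT cell held 113 Cdkn1a UMIs. With the highest 1% of cells left out the mast/basophil ratio was 1.10, and in cells with 16000 UMIs or more it was 0.33.

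Cdkn1b (p27; chromosome 6, 134920401 to 134925513, plus strand) was lower in KO over all cells, with 38.2 CPM in WT against 34.2 CPM in KO, and higher in KO in 5 of 6 groups. Granule cells had 16.5 CPM in WT and 25.0 CPM in KO (0.60, 0.49 to 0.71), and stem-gated cells 61.8 and 74.8 CPM (0.27, 0.09 to 0.45). Mast/basophil, lymphoid-primed and ungated cells had ratios of 0.37, 0.19 and 0.17, and the interval of the megakaryocyte group included 0 (-0.13 to 0.41). The stem cell ratio rested on the gate: with 1 marker more it was -0.05, and in cells with 16000 UMIs or more 0.07. Stem-gated cells were the highest of the 6 groups and granule cells the lowest in both libraries. Granule cells were 17.1% of WT and 51.1% of KO cells, while the CPM over all cells was lower in KO.

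Cdkn1c (p57; chromosome 7, 143458339 to 143461050, minus strand), the scarcest member, was highest in stem-gated cells, with 12.5 CPM in WT and 15.7 CPM in KO (0.33, -0.09 to 0.73), and nearly as high in the WT megakaryocyte group. In granule cells it had 32 UMIs or 0.653 CPM in WT (0.447 to 0.922) and 322 UMIs or 2.93 CPM in KO (2.62 to 3.27), a log2 ratio of 2.17 (1.64 to 2.74). Lymphoid-primed cells had 4.40 and 8.73 CPM (0.99, 0.54 to 1.43), ungated cells 4.99 and 9.28 CPM (0.90, 0.58 to 1.21), and the megakaryocyte group 70 and 26 UMIs, or 12.2 and 7.63 CPM (-0.67, -1.38 to -0.00). In WT stem-gated cells held 245 and granule cells 32 of the 640 Cdkn1c UMIs. In KO they held 66 and 322 of 740. Barcodes under 100 UMIs, which hold free RNA in place of a cell, had 4.06 CPM of Cdkn1c in WT and 4.23 CPM in KO, above both granule values. WT granule cells also had more UMIs, a median of 53380 against 38081 in KO, and the part of free RNA and of depth in the granule difference was not tested. In granule cells with 16000 UMIs or more the ratio was 2.16, and with 1 marker more at the gates it was 2.61 in granule and 0.36 in ungated cells.

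Counted against the background of each group, members at 10 CPM or more that were 1.5-fold apart were 2 of 10 in stem-gated cells (Ccnd1 and Cdkn1a, both higher in KO; 6.17% of all genes), 0 of 9 in lymphoid-primed cells (5.49%), 2 of 9 in granule cells (Cdkn1b higher and Ccnd1 lower; 4.6%), 3 of 9 in the megakaryocyte group (Ccnd1 and Cdkn1a higher and Cdkn2c lower; 7.99%), 1 of 8 in mast/basophil cells (Cdkn1a higher; 11.8%) and 2 of 9 in ungated cells (Ccnd1 and Cdkn1a higher; 3.84%). Cdkn1c passed 10 CPM in stem-gated cells alone. The UMIs of the Cip/Kip genes summed were higher in KO in stem-gated (93.4 and 126 CPM, 0.43), granule (34.4 and 46.3 CPM, 0.43) and mast/basophil cells (185 and 286 CPM, 0.63). Lymphoid-primed (0.34) and ungated cells (0.45) were also higher. The megakaryocyte interval included 0 (-0.02 to 0.39), and over all cells the ratio was 0.05. The INK4 sum was lower in KO in granule (-0.35), mast/basophil (-0.43) and megakaryocyte cells (-0.24). It was higher in stem-gated cells (0.19), and the lymphoid-primed and ungated intervals included 0.

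The mast/basophil group joins related cells, and it was divided, after its values had been seen, by whether Mcpt8 and Prss34, known as basophil protease genes, or the mast cell protease genes Cma1, Tpsb2, Tpsab1 and Mcpt4 held more UMIs in a cell. The 77 WT and 107 KO cells led by Mcpt8 and Prss34 had 199 CPM of Cdkn1a in WT and 86.1 CPM in KO (-1.21, -1.45 to -0.98). The 160 and 205 cells led by the mast protease genes had 105 CPM in WT and 325 CPM in KO (1.63, 1.45 to 1.82). Of the 752 WT Cdkn1a UMIs of the whole group, 520 remained once its 3 highest WT cells were left out. The parts, with 439 WT UMIs where Mcpt8 and Prss34 led, were not recomputed without these cells. As counted, the higher level over the whole group came with opposite directions in its parts. Ccnd2 did likewise, at 191 and 116 CPM (-0.72) in the former and 200.5 and 353 CPM (0.81) in the latter. Ccnd3 was lower in KO in the Mcpt8 and Prss34 cells alone (301 and 176 CPM, -0.77, -0.94 to -0.60), where Cdk4 (0.52), Cdk6 (0.39) and Cdkn1b (0.69) were higher. In the mast protease cells Cdk4 was lower in KO (267.6 and 214.5 CPM, -0.32, -0.46 to -0.18). The level Cdk4 of the whole group thus also joined opposite directions. The intervals of Cdk6 and Cdkn1b included 0 in the mast protease cells. The share of cells with low cycle scores, defined further on, was 39.0% and 33.6% in the Mcpt8 and Prss34 cells and 41.9% and 76.1% in the mast protease cells, and its part in these differences was not tested.

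**Figure D3:**
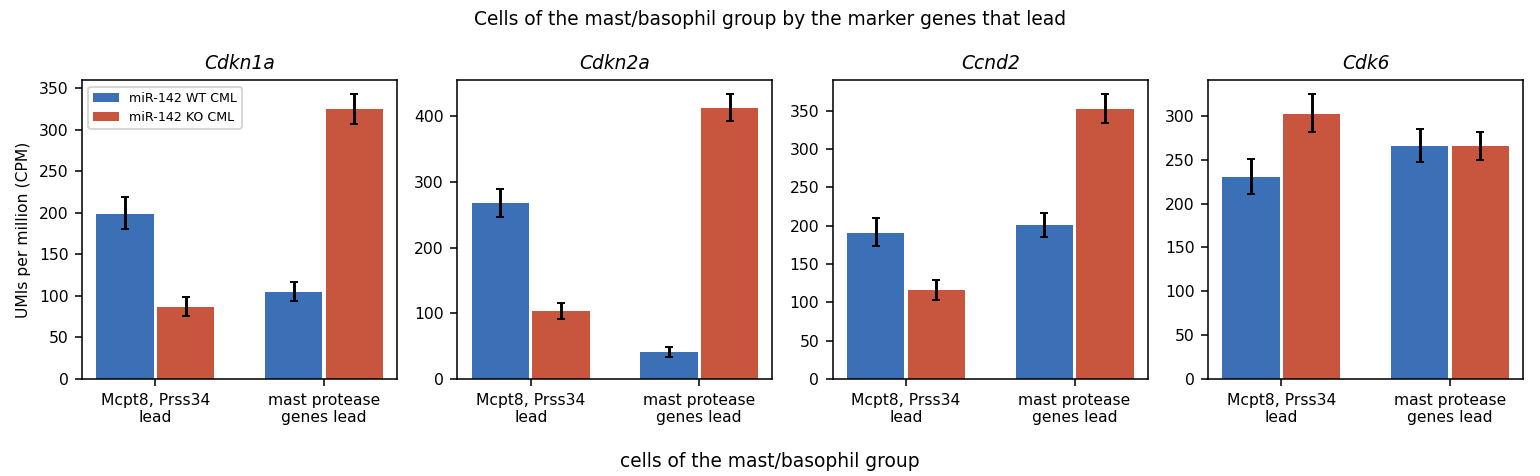
CPM (y axis, from 0) of Cdkn1a, Cdkn2a, Ccnd2 and Cdk6 in WT (blue) and KO (red) cells of the mast/basophil group, divided by which marker genes held more UMIs (x axis), with 95% Poisson intervals for counting error. Cdkn1a and Ccnd2 were lower in KO where Mcpt8 and Prss34 led and higher in KO where the mast protease genes led.

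Cdkn2c (p18; chromosome 4, 109660876 to 109667189, minus strand) was lower in KO in 4 of 6 groups and below 0 in all 6. The megakaryocyte group, the highest in WT, had 31.2 CPM in WT and 19.7 CPM in KO (-0.67, -1.10 to -0.26). Lymphoid-primed cells had 17.2 and 13.3 CPM (-0.37, -0.68 to -0.07), granule cells 13.2 and 10.8 CPM (-0.29, -0.43 to -0.15) and ungated cells 19.7 and 17.1 CPM (-0.21, -0.40 to -0.01). Stem-gated cells had 24.9 and 19.8 CPM, with an interval from -0.68 to 0.01. Cdkn2d (p19; chromosome 9, 21288410 to 21291407, minus strand) had no single direction. It was higher in KO in stem-gated cells (78.2 and 97.7 CPM, 0.32, 0.16 to 0.48) and ungated cells (66.6 and 74.5 CPM, 0.16, 0.06 to 0.26), and lower in granule (63.9 and 49.8 CPM, -0.36, -0.42 to -0.30) and mast/basophil cells (81.9 and 59.2 CPM, -0.47, -0.67 to -0.27). Both INK4 genes were highest or near highest in the megakaryocyte group, where Cdkn2d had 111 CPM in WT and 101 CPM in KO.

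To view the members against the cell cycle, UMIs of 42 S phase genes and 52 G2M genes were summed in each thinned cell, and cells were classed at limits set on both libraries pooled. Low cells had at most 15 S and 20 G2M UMIs, G2M-high cells 62 G2M UMIs or more, S-high cells 31 S UMIs or more without that, and the rest were between. No member was in these lists. The classes are ranges of a score and not phases, and of 10821 cells 1200, 1070, 776 and 331 lay within 2 UMIs of the lower S, upper S, lower G2M and upper G2M limits. The low class held 23.8% of WT and 23.2% of KO cells (95% Clopper-Pearson intervals 22.6 to 24.9 and 22.0 to 24.3). Within groups the low share was larger in KO: 40.3% in WT and 48.3% in KO of stem-gated cells, 25.1% and 43.2% of lymphoid-primed cells, 1.64% and 6.45% of granule cells, 22.5% and 33.8% of the megakaryocyte group, 40.8% and 61.7% of mast/basophil cells, and 19.1% and 31.2% of ungated cells. Free RNA can add UMIs to the scores, and its part was not tested.

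Inside each library the inhibitors differed in how they ran with the cycle scores. The classes sum all groups, so makeup enters these contrasts, and its part was not tested. Granule cells, the group lowest in the inhibitors, were 15 of 1274 low cells in WT and 180 of 1264 in KO. Cdkn1b had 61.1 CPM in low and 24.2 CPM in S-high cells of WT (-1.34, -1.47 to -1.21), and 66.6 and 23.7 CPM in KO (-1.49, -1.61 to -1.36). Cdkn1c had 9.26 and 4.17 CPM in WT (-1.15) and 8.80 and 4.57 CPM in KO (-0.95). Cdkn2c went the other way, with 9.76 CPM in low and 24.6 CPM in G2M-high cells of WT (1.33, 1.09 to 1.58) and 8.05 and 15.1 CPM in KO (0.91, 0.64 to 1.18). Cdkn2d was lower in S-high than in low cells (-0.50 in WT, -0.58 in KO) and higher in G2M-high cells (0.52 and 0.25). Cdk4 was higher in S-high than in low cells (289 and 548 CPM in WT, 0.92; 311 and 561 CPM in KO, 0.85). Cdk6 was nearly level in WT (-0.12 in S-high and -0.02 in G2M-high) and lower in the cycling classes of KO (-0.45 and -0.34). Ccnd2 was lower in S-high than in low cells, by a log2 of -0.54 in WT and -1.17 in KO, which became -0.35 and -0.57 without the mast/basophil group. Ccnd1 peaked in S-high cells of WT (17.2 CPM in low and 42.7 CPM in S-high cells, 1.31), while in KO low and S-high cells were close (30.8 and 34.8 CPM, 0.18), and without the mast/basophil group the KO direction turned (36.5 and 35.3 CPM, -0.05). Its G2M-high cells stood above low cells in WT (0.38) and below them in KO (-1.45). Inside KO groups, low and other cells had 39.0 and 46.0 CPM of Ccnd1 in stem-gated and 41.4 and 50.8 CPM in lymphoid-primed cells. Ungated cells had 43.8 and 48.9 CPM, the megakaryocyte group 59.4 and 60.7 CPM and mast/basophil cells 7.06 and 10.6 CPM. Granule cells had 18.0 and 13.35 CPM. Ccnd3 was nearly level in WT (-0.04 in S-high and -0.18 in G2M-high) and lower in the cycling classes of KO (-0.23 and -0.56). In low and other stem-gated cells, Cdkn1b had 64.6 and 60.7 CPM in WT and 87.1 and 68.4 CPM in KO. Cdkn1c had 13.3 and 12.2 CPM there in WT and 13.9 and 16.7 CPM in KO. In lymphoid-primed cells Cdkn1b had 78.3 and 51.0 CPM in WT and 70.3 and 59.2 CPM in KO.

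Many genes were 1.5-fold apart between cycling and low cells. In WT 4 of 9 were apart in S-high and 5 of 9 in G2M-high cells, where 36.3% and 33.7% of all genes were. In KO these were 5 of 9 and 6 of 9, where 41.5% and 39.7% of all genes were. Cdkn1a was lower in S-high than in low WT cells (29.3 and 46.6 CPM, -0.67), but without the mast/basophil group the direction turned (28.4 and 23.5 CPM, 0.27). In KO it stayed lower without that group (-0.53 in place of -1.79).

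**Figure D4:**
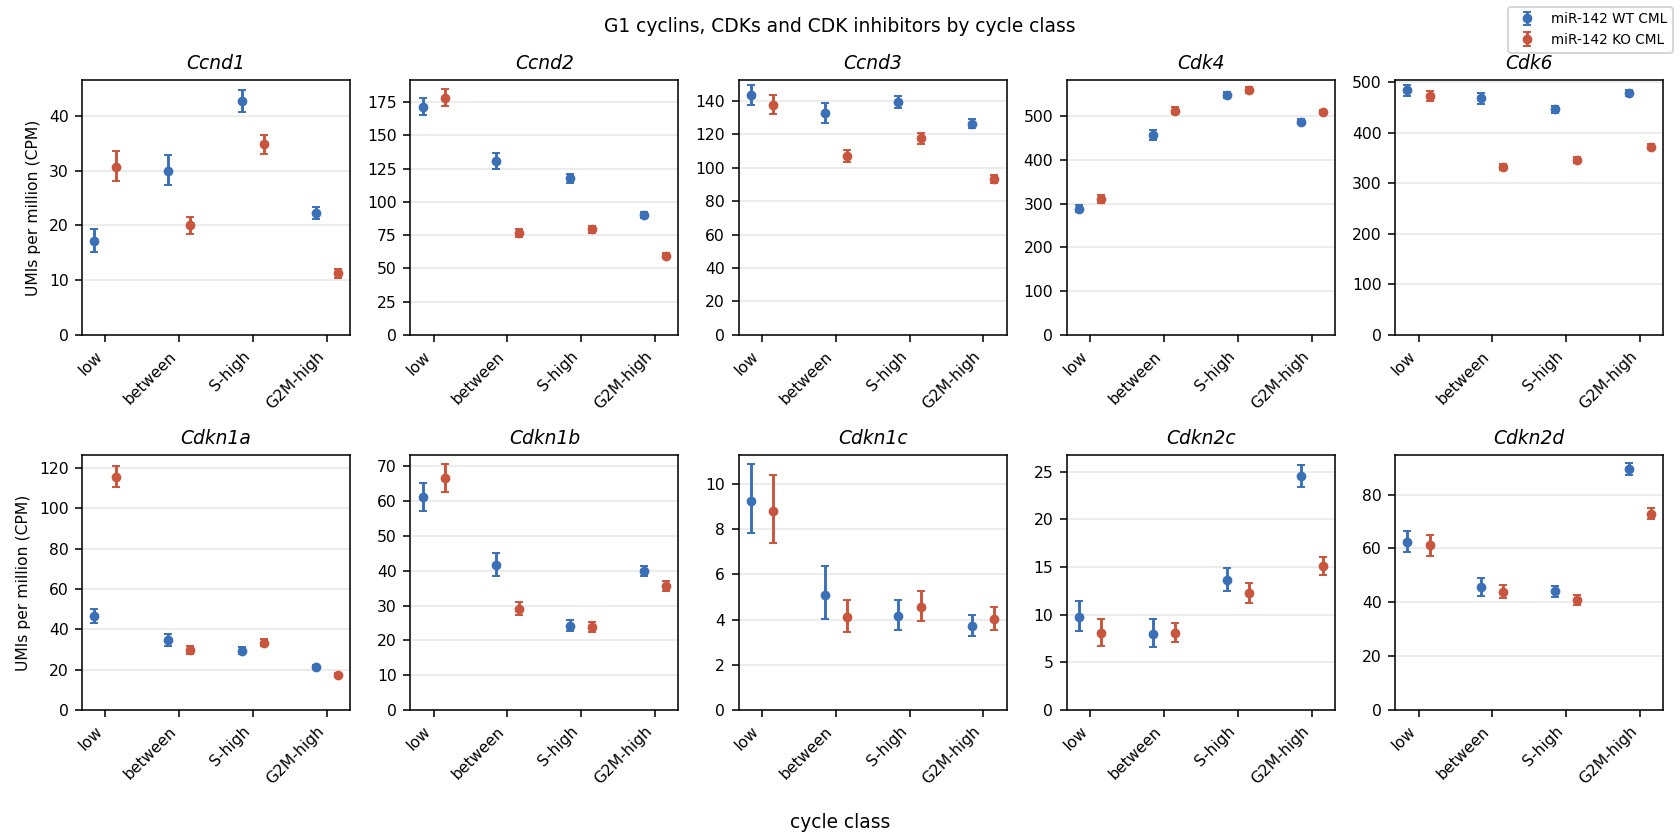
CPM of each member (y axis, from 0, a scale of its own in each panel) by cycle class (x axis) in the WT library (blue) and the KO library (red), 1 library each, with 95% Poisson intervals for counting error. Cdkn1b was lowest in S-high cells and Cdkn2c highest in G2M-high cells of both libraries, while Ccnd1 in low cells had 17.2 CPM in WT and 30.8 CPM in KO.

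Between the libraries and with all groups summed, Ccnd1 changed direction from low to G2M-high cells, and Cdkn1a differed most in low cells. Ccnd1 had 17.2 CPM in WT and 30.8 CPM in KO there (0.84, 0.62 to 1.06), against 22.3 and 11.3 CPM in G2M-high cells (-0.98, -1.11 to -0.86). Cdkn1a had 46.6 and 116 CPM in low cells (1.31, 1.19 to 1.44), which became 23.5 and 45.3 CPM (0.95) without the mast/basophil group. These were the only 2 of 8 members 1.5-fold apart in low cells (9.16% of all genes), and both were higher in KO. In low cells of 16000 UMIs or more the ratio of Ccnd1 was 0.17 and that of Cdkn1a 0.96. In G2M-high cells Ccnd1, Ccnd2 (90.2 and 59.4 CPM, -0.60) and Cdkn2c (24.6 and 15.1 CPM, -0.70) were lower in KO, 3 of 9 members beside 8.6% of all genes. In S-high cells 0 of 9 were apart (7.23%), and between the classes 1 of 8, Ccnd2 (16.6%). Different groups filled a class in the libraries, so these ratios carry the change in makeup too. Outside the low class, Ccnd1 had 1.18 in stem-gated, 0.25 in lymphoid-primed, 1.67 in megakaryocyte and 0.58 in ungated cells. Mast/basophil cells had -0.00 and granule cells -1.10. Cdkn1a, in low and other cells, had 0.64 and 0.71 in ungated and 0.35 and 0.69 in megakaryocyte cells. It had 0.95 and 0.86 in stem-gated, 0.91 and 0.36 in lymphoid-primed and 0.66 and -0.09 in mast/basophil cells.

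Stem-gated cells of the low class, 506 in WT and 143 in KO, are a part of the stem group and not a second set of cells. In this part Ccnd1, Cdkn1a, Cdkn1b, Cdkn2d and Ccnd2 had the directions of the whole group. The alternative settings were not applied to this part. Ccnd1 had 16.2 CPM in WT and 39.0 CPM in KO (90 and 56 UMIs; 1.27, 0.76 to 1.76). Cdkn1a had 18.4 and 35.5 CPM (102 and 51 UMIs; 0.95, 0.44 to 1.45), Cdkn1b 64.6 and 87.1 CPM (0.43, 0.12 to 0.73), and Cdkn2d 64.4 and 89.1 CPM (0.47, 0.17 to 0.76). Ccnd2 was lower in KO, at 170 and 116 CPM (-0.56, -0.80 to -0.32). Cdk6 had 521 and 571 CPM (0.13, 0.02 to 0.24), and the intervals of Cdk4, Ccnd3, Cdkn1c and Cdkn2c included 0. In stem-gated cells outside the low class, Ccnd1 (1.18, 0.87 to 1.49), Cdkn1a (0.86, 0.51 to 1.20), Ccnd2 (-0.58, -0.80 to -0.37) and Cdkn2d (0.29, 0.09 to 0.48) kept these directions, and Cdkn1b did not exclude 0 (0.17, -0.06 to 0.40). In low-class granule cells, 15 in WT and 180 in KO, no ratio was taken.

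Of 39 other genes of the G1/S pathway, 30 had 10 CPM or more, and none was 1.5-fold higher (2.77% of all genes) and 2 were 1.5-fold lower in KO (4.81%). Their median log2 ratio was -0.11. Mycn, a MYC family factor, had 18.8 CPM in WT and 6.01 CPM in KO (-1.64, -1.75 to -1.54), with 54.1 and 35.0 CPM in stem-gated cells (-0.63, -0.89 to -0.38) and 92.7 and 77.7 CPM in the megakaryocyte group (-0.25, -0.47 to -0.04). Ccng2, a cyclin G known to rise in resting cells, had 19.7 and 10.9 CPM (-0.85, -0.94 to -0.76), but 30.6 and 32.9 CPM in stem-gated cells (0.10, -0.17 to 0.37) and 7.63 and 6.51 CPM in granule cells (-0.23). The 4 most abundant genes of the list were near level: the CDK subunit gene Cks1b (0.16), the chromatin gene Rbbp4 (-0.03), the E2F partner Tfdp1 (0.22) and Myc (-0.01). Of 16 p53 target genes 6 had 10 CPM or more and none of these was 1.5-fold apart, with a median of -0.10. Under a mean of 10 CPM, Pmaip1 was higher in KO (6.12 and 11.5 CPM, 0.91, 0.79 to 1.03). Phlda3 (3.38 and 1.81 CPM, -0.90) and Trp53inp1 (6.90 and 4.51 CPM, -0.61) were lower. The pro-apoptotic Bax had 159 and 181 CPM (0.19), the antiproliferative Btg2 107 and 78.3 CPM (-0.46), Aen 42.3 and 44.9 CPM (0.09) and Ei24 37.3 and 33.9 CPM (-0.14). Ccne2, E2f8, Cks1b and Gtse1 stood in these lists and in the cycle lists.

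Cdkn2a, the locus of p16 and p19ARF, had a mean just under 10 CPM and is named because its values were seen. It had 727 UMIs in WT and 2293 in KO, and 710 and 2179 of them lay in mast/basophil cells (136 and 312 CPM, 1.20, 1.08 to 1.33). Granule cells held 5 and 10. As with Cdkn1a, the parts of the mast/basophil group were opposed. Cells led by Mcpt8 and Prss34 had 267 CPM in WT and 103 CPM in KO (-1.38, -1.59 to -1.17), and cells led by the mast protease genes 40.6 and 413 CPM (3.35, 3.08 to 3.62).

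The genes most alike to each member, among 2790 genes with a mean of 50 CPM or more, were ranked by Pearson correlation of log2 CPM over 12 points, the 6 groups in 2 libraries, which share library, depth and gates. Ccnd1 was most like the ribosomal protein genes Rpl6 (r = 0.88), Rplp0 and Rpsa (0.87 each). Ccnd2 was most like Ptp4a2 (0.97) and Akr1c13 (0.95), and Ccnd3 most like Rhoa (0.97), Smap1 (0.94) and Rsu1 (0.93). For Cdk4 these were Hprt (0.99) and Idh2 (0.98), and for Cdk6 Snrnp48, Huwe1 (0.98 each) and Tra2a (0.97). Cdkn1a had Fxyd5, Lat2 (0.97 each) and Csf2rb2 (0.96), Cdkn1b had Baz2b (0.98), Akap13 and Ypel3 (0.97 each), and Cdkn1c had Cox6b2, Hsd3b7 (0.96 each) and Hint2 (0.95). Cdkn2c had Purb (0.96), Acyp1 (0.95) and Dpf2 (0.94), and Cdkn2d had Tmco1 and Smap1 (0.94 each).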

How the data were processed

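Per the labels and the study's methods, the authors captured about 8000 LSK cells per sample with a 10x Genomics 3′ v3.1 kit and made the deposited UMI counts with Cell Ranger 6.1.2 on mm10, while the matrix header names Cell Ranger 4. The deposited counts are raw and unfiltered for cells. A filter of 8000 UMIs and under 10% mitochondrial UMIs left 138183896 UMIs in WT and 158438757 in KO cells. Too high a mitochondrial share took out 24 WT and 4 KO barcodes, and no doublets were removed.

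Summed counts were scaled to CPM, with exact Poisson 95% intervals for levels and exact conditional binomial intervals for ratios. The fold counts used genes with a mean of 10 CPM, a pseudocount of 0.1 CPM and a minimum of 1.5-fold. No ratio was taken under 50 cells a group or where both counts were at or under 3. Gates needed, in each thinned cell, 4 of 5 antibody-secreting, 3 of 8 innate lymphoid, 4 of 12 mast/basophil, 2 of 8 erythroid, 3 of 9 megakaryocyte, 3 of 8 lymphoid-primed (without Ighm) or 2 of 10 stem cell markers, or 0.5% of UMIs from the granule genes. The stricter gates of the alternatives asked for 1 marker more, or double that granule share. The minimums, and the order in which gates overrode each other, were set after the marker counts had been seen. The members, gene lists and alternatives were chosen with earlier results of these data known. Members were named in full, other listed genes where 1.5-fold apart or among the 4 most abundant, and the 3 most alike genes per member, of which some are not reported here. Gene positions and 3′ UTRs came from GENCODE M21 (GRCm38, the build of mm10), which matched 32235 of 32285 identifiers. No protein sequences are shown. Python 3.11.15, numpy 2.4.6, scipy 1.17.1 and pandas 2.3.3 were used, and the fold counts and intervals were tested on simulated data.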

Additional observations from a re-analysis of the deposited data

Results flagged for a closer look

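Ccnd1, Cdkn1a and Ccnd2 went in opposite directions (KO over WT, log2) in different sets of cells, each at 1.5-fold or more on the CPM themselves and with an interval that excluded 0. With 1 library per group the differences between these ratios were not tested. Ccnd1 had 1.19 in stem-gated cells, 1.73 in the megakaryocyte group and 0.60 in ungated cells, against -1.08 in granule cells. By cycle class Ccnd1 had 0.84 in low cells, against -0.59 in cells between the classes (under 1.5-fold once 0.1 CPM is added) and -0.98 in G2M-high cells. These classes summed all groups: outside the low class Ccnd1 had 1.18 in stem-gated and -1.10 in granule cells. Cdkn1a had -1.21 in mast/basophil cells led by Mcpt8 and Prss34 and 1.63 in those led by the mast protease genes. Ccnd2 had -0.72 and 0.81 in the same cells. These parts of the mast/basophil group were not recomputed without the 3 WT cells highest in Cdkn1a.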

How the results depend on the processing

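No paired analysis was possible because each group had 1 library. Over all cells, 0 members were 1.5-fold apart, but 2 were in cells of 16000 UMIs or more (Ccnd1 and Cdkn2c), 1 with the top 6% of UMIs left out (Cdkn2c), 1 with the mean of per-cell CPM (Cdkn1a), and, in alternatives chosen after seeing the data, 1 without mast/basophil cells and 1 without these and innate lymphoid cells (Ccnd2 in both). Of 10 members, 3 had a ratio above 0, and 5 once weighted to the pooled cell groups. The counts here took ratios of 1.5-fold or more with an interval that excluded 0, with no CPM minimum or pseudocount. The share of all genes under this rule was not taken, so the counts do not set the members apart from other genes. By cell group 11 of 60 ratios were 1.5-fold higher and 2 lower in KO. Under the 5 alternatives these counts ran from 8 to 12 and from 2 to 3. Between cycling and low cells, 8 of 40 were higher and 16 lower, which became 15 and 10 in cells of 16000 UMIs or more. Between libraries by class, 2 of 40 were higher (Ccnd1 and Cdkn1a in low cells), which became 1 in those cells (Cdkn1a). The ratio of Cdkn1a in S-high over low WT cells reversed to 0.27 without mast/basophil cells and also without these and innate lymphoid cells. No other ratio that was 1.5-fold apart changed sign. Size factors (median of ratios) shifted the all-cell ratios by 0.08. Ccnd1 over all cells changed sign with the mean of per-cell CPM (0.18) and with the weighted cell groups (0.26). Except where groups or cells were left out, the cause of a change was not tested. Cdkn1c rests on the fewest UMIs, 640 in WT and 740 in KO, which limits its ratios in small groups.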
